A study of Mus musculus with 12 samples.

Results

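The collagen chain genes are the protein-coding genes that encode the alpha chains of the collagens. They were chosen by name, as Col, a number, a and a number, from the GENCODE M21 annotation of the mouse, a rule that uses no measured value, although this family was picked with earlier results of these data known. Of 44 such genes in the annotation, 31 were among the 18278 genes in the count files, and all 31 passed the count filter. They comprised 9 fibrillar chains, 6 chains of the basement membrane network, 3 of the beaded filament, 5 fibril-associated collagens (FACIT), 2 multiplexins, 1 anchoring fibril chain, 2 short-chain network chains, 2 transmembrane collagens and Col26a1, which belongs to none of these classes. The other 13 (Col2a1, Col5a2, Col6a4, Col6a5, Col6a6, Col9a1, Col9a2, Col10a1, Col13a1, Col19a1, Col22a1, Col25a1 and Col28a1) were not analysed here.

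RNA was sequenced from tumourspheres, the clusters that dissociated tumour cells form in plates to which they cannot attach. LM1 and LM9, called parental here, are cell lines grown from lung metastases in NOD/SCID mice of a mouse mammary cancer line with a mutant PIK3CA transgene that had undergone piggyBac transposon mutagenesis, so all groups carry that transgene and transposon background. In the cells labelled LM1KO and LM9KO (the Nfib knockouts), CRISPR-Cas9 was aimed at the gene that encodes the transcription factor NFIB, and each is a pool of a few clones grown from single cells. The 12 libraries (3 a group) came from cells kept for 6 days at 10000 cells per mL with 20 ng/mL EGF and 20 ng/mL basic FGF, and held between 29249075 and 37162594 counts. Levels are given as CPM, the counts per 1e6 of library size after TMM scaling. Nothing in the labels says that replicates were separate cultures, so the p-values measure only the spread between these libraries.

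Collagens are extracellular matrix proteins in which alpha chains wind into a long helix, either as copies of the same chain or as fixed combinations of different chains. Fibrillar collagens such as types I, III and V form the tensile fibrils of connective tissue, whereas type IV forms the sheet-like network of the basement membrane on which mammary epithelium rests. FACIT collagens sit on fibril surfaces, type VI builds beaded filaments that link cells to the matrix, and the multiplexins types XV and XVIII lie at basement membranes. In mammary tumours, collagen deposition and basement membrane breakdown are long-studied features of the tumour matrix.

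Several libraries went against their labels or stood apart. Nfib mRNA, the product of the targeted gene, was not lower in the knockout-labelled libraries. It was at 218 ± 22.6 CPM in LM1 (SD, n = 3) and 235 ± 5.67 CPM in the LM1KO-labelled libraries, and at 154 ± 48.8 against 240.0 ± 11.2 CPM for LM9. The log2 fold change by limma-voom was 0.11 (SE 0.16, adjusted p = 0.533) in LM1, where the groups overlapped, 0.68 (SE 0.17, adjusted p = 0.0026) in LM9, 0.93 (SE 0.07, adjusted p = 1.14e-09) in LM9 without replicate 1 and 0.40 (SE 0.12, adjusted p = 0.00735) over both lines. Per the study's methods the clones were screened by immunoblotting, a measure of protein that the count files do not hold, and each direction given here follows the labels. The knockout-labelled libraries of both lines were also nearly alike, with no gene of 18176 called between them by limma-voom, edgeR or DESeq2 and 0.979% of genes at an unadjusted p under 0.05 by limma-voom. These counts use a spread shared by all 12 libraries and so depend on the other groups. The share was 3.6% without LM9 replicate 1, and a limma-voom fit of only these groups called 6 of 16803 genes.

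LM9 replicate 1 lay with the LM1 libraries. Over the 31 collagen genes, the root mean square of its log2 differences (with 0.5 CPM added) was 0.0992 from the LM1 mean and 1.06 from the mean of the other LM9 libraries, which differed from each other by 0.227. It was closer to LM1 for 23 of the 31 genes, and for 15277 of all 18176 genes tested. Among the rest, Col11a1, Col1a2, Col26a1, Col4a3 and Col4a4 had no count in any parental library, so they were tied and could not count as closer. The plot of the LM9 libraries against LM1 shows this for the 19 collagen genes at 1 CPM or more in a parental line. Results for LM9 are therefore given with and without this library where it changes them.

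**Figure D1:**
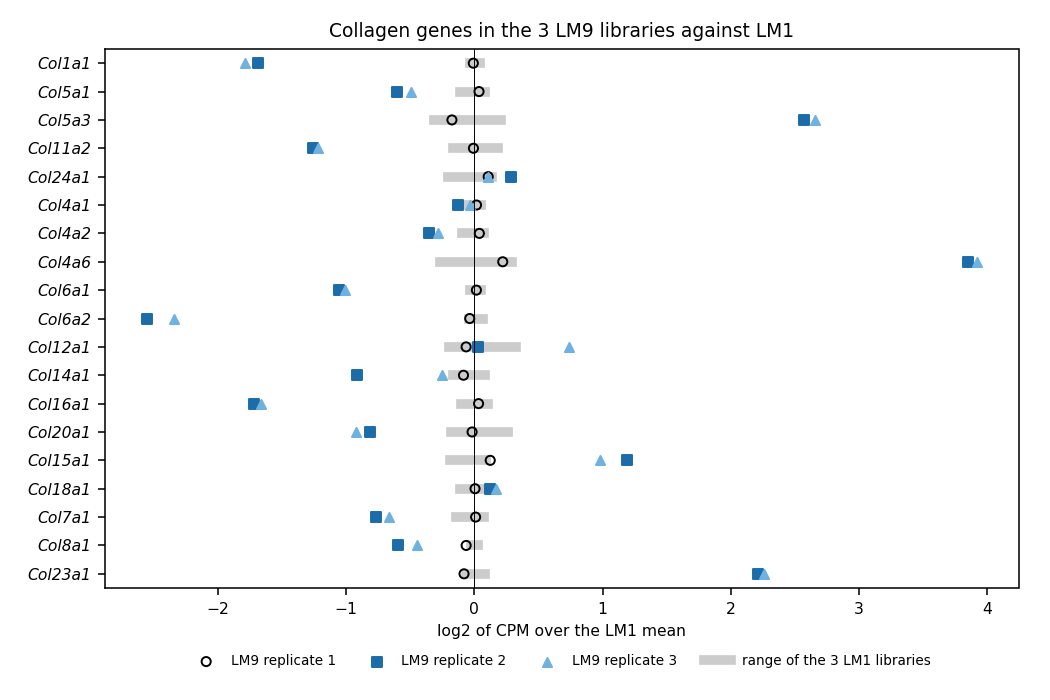
Log2 of the CPM of each LM9 library over the LM1 mean for the 19 collagen genes with a mean of at least 1 CPM in LM1 or LM9; grey bars span the 3 LM1 libraries. The open circles of LM9 replicate 1 lie within or close to the grey bars, while replicates 2 and 3 (squares and triangles) lie together and away from them for most genes, for example Col6a2, where they were at 5.56 and 6.45 CPM against 31.9 CPM in replicate 1.

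Promoter windows of 300 bases (250 before and 50 after the transcription start, RefSeq, build GRCm38.p6) were found for 25 of the 31 genes, in 27 windows. The core of the NFI binding motif, TTGGC or its reverse complement GCCAA, was in 11 of the 27 windows, against 46.7% of 32817 promoter windows of the mouse. No window of a collagen gene held the full palindrome, in which a core and its reverse complement lie 5 bases apart, and 0.0366% of all windows did. The GC box (GGGCGG or CCGCCC) was in 18 of the 27 windows (35.6% of all), the CCAAT box (CCAAT or ATTGG, which can share letters with GCCAA) in 10 (37.4%) and TATAAA or its reverse TTTATA in 3 (13.6%). Median GC content was 60.3% in the windows of collagen genes and 52.7% over all windows. A match is a description of the letters and not a binding site.

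Windows of 4 type IV and 3 type VI chains are printed 5′ to 3′ on the strand of the gene, because the results compare these neighbours and partner chains with each other; capitals mark the NFI core. Those of type IV are Col4a1 (chr8:11312777-11313076, minus strand), Col4a2 (chr8:11312555-11312854, plus strand), which starts 21 bases away on the other strand so that the windows overlap, Col4a5 (chrX:141475169-141475468, plus strand) and Col4a6 (chrX:141474027-141474326, minus strand). Those of type VI are Col6a1 (chr10:76725995-76726294, minus strand), Col6a2 (chr10:76623581-76623880, minus strand; of its 2 windows, the one whose start is the gene start used here) and Col6a3 (chr1:90843922-90844221, minus strand).
Col4a1: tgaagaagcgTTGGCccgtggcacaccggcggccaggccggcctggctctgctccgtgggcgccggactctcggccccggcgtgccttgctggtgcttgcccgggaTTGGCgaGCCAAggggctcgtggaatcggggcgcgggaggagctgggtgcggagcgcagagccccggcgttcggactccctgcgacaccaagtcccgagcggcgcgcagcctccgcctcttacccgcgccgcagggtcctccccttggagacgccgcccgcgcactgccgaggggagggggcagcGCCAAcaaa
Col4a2: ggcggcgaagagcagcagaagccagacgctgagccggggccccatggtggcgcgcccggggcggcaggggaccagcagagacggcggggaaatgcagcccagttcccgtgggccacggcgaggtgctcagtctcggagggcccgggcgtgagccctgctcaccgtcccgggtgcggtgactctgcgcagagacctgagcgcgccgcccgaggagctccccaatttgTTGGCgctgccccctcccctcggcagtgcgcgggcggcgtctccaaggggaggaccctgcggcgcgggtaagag
Col4a5: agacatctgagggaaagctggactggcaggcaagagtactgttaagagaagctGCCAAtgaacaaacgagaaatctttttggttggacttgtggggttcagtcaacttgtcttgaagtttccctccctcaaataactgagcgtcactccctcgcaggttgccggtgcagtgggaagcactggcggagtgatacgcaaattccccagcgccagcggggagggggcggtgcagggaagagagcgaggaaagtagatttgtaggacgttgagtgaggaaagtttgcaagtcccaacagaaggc
Col4a6: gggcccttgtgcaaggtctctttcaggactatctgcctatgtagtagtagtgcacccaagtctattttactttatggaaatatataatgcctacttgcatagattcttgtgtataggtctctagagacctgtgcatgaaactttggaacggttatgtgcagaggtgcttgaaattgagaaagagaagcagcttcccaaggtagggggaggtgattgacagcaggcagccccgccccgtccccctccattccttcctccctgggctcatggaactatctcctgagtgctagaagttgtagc
Col6a1: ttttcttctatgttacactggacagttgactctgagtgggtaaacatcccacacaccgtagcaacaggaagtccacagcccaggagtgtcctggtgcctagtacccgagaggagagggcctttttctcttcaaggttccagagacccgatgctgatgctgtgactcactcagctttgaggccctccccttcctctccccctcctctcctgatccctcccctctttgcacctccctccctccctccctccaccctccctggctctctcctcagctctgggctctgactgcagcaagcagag
Col6a2: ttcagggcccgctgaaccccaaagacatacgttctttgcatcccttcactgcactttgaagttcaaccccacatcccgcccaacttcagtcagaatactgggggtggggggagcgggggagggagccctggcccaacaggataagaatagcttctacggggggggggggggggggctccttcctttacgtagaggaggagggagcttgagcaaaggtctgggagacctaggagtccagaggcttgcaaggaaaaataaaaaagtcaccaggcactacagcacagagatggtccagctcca
Col6a3: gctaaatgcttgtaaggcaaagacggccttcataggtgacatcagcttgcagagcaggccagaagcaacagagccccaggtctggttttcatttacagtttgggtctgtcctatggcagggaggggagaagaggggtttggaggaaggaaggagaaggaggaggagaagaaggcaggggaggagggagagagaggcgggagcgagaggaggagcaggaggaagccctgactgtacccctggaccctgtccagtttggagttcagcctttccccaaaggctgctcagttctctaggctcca

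The Col4a1 window held 4 NFI cores, of which 2 face each other across a short spacer (TTGGCgaGCCAA), and the Col4a2 and Col4a5 windows held 1 each, as did the window of Col4a4, which is not printed. The core nearest the Col4a2 start lies in the overlap and is also the last in the Col4a1 window. No NFI core was found in the windows of Col4a6, Col6a1, Col6a2 (either window) and Col6a3, which says only that these letters are not in these windows. Genes with a core moved in both directions in the knockout-labelled libraries, as did genes without.

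Most collagen chain genes differed between the knockout-labelled libraries and the parental libraries, in either direction and in both lines. Col4a1 and Col4a2, the main chains of the basement membrane, fell from at least 438 CPM in every parental library to at most 11 counts in every knockout-labelled one, while Col6a3, Col1a1, Col3a1 and Col4a5 rose from at most 6.31 CPM to at least 19.8 CPM. With limma-voom (adjusted p under 0.05), 30 of 31 members differed between LM1 and the LM1KO-labelled libraries, 17 higher and 13 lower there. Of all genes tested, 81.2% were called in that comparison (43.1% higher, 38.1% lower). For LM9, 28 of 31 were called, 16 higher and 12 lower, against 82.3% of all genes (44.3% higher, 38% lower). Over both lines, 30 were called, 17 higher and 13 lower, against 86.8% of all genes (46.3% higher, 40.5% lower). The count of members called is thus near a background in which most genes were called.

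The sizes of the differences were large for the members. An absolute log2 fold change above 1 together with the threshold was met by 28 of 31 members, against 56.7% of all genes. The median absolute log2 fold change over both lines was 4.47 over the members and 1.20 over all genes tested. Col11a1, Col1a2, Col26a1, Col4a3 and Col4a4 had no count in any parental library and passed the count filter only through the knockout-labelled libraries. Their direction was thus set in advance, and no p-value is given for them. They are among the members counted here and above, and their fitted fold changes enter this median without bounds. For 28 of the 31 members, all but Col6a1, Col14a1 and Col23a1, the 6 knockout-labelled libraries did not overlap the 6 parental libraries, against 74.7% of all genes. Of the members, 27 were called in both lines, all in the same direction, as were 73% of all genes. Without LM9 replicate 1, 31 were called in LM1 and 30 in LM9 (88.6% and 88.9% of all genes), and of the 30 called in both, Col6a1 and Col23a1 had opposite directions, with 75.6% of all genes called in both in the same direction. The scaling moved the centre of these comparisons, since the median of all genes over both lines was 0.11 on the log2 scale with TMM, 0.40 with total counts and 0.12 with median-ratio factors.

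**Figure D2:**
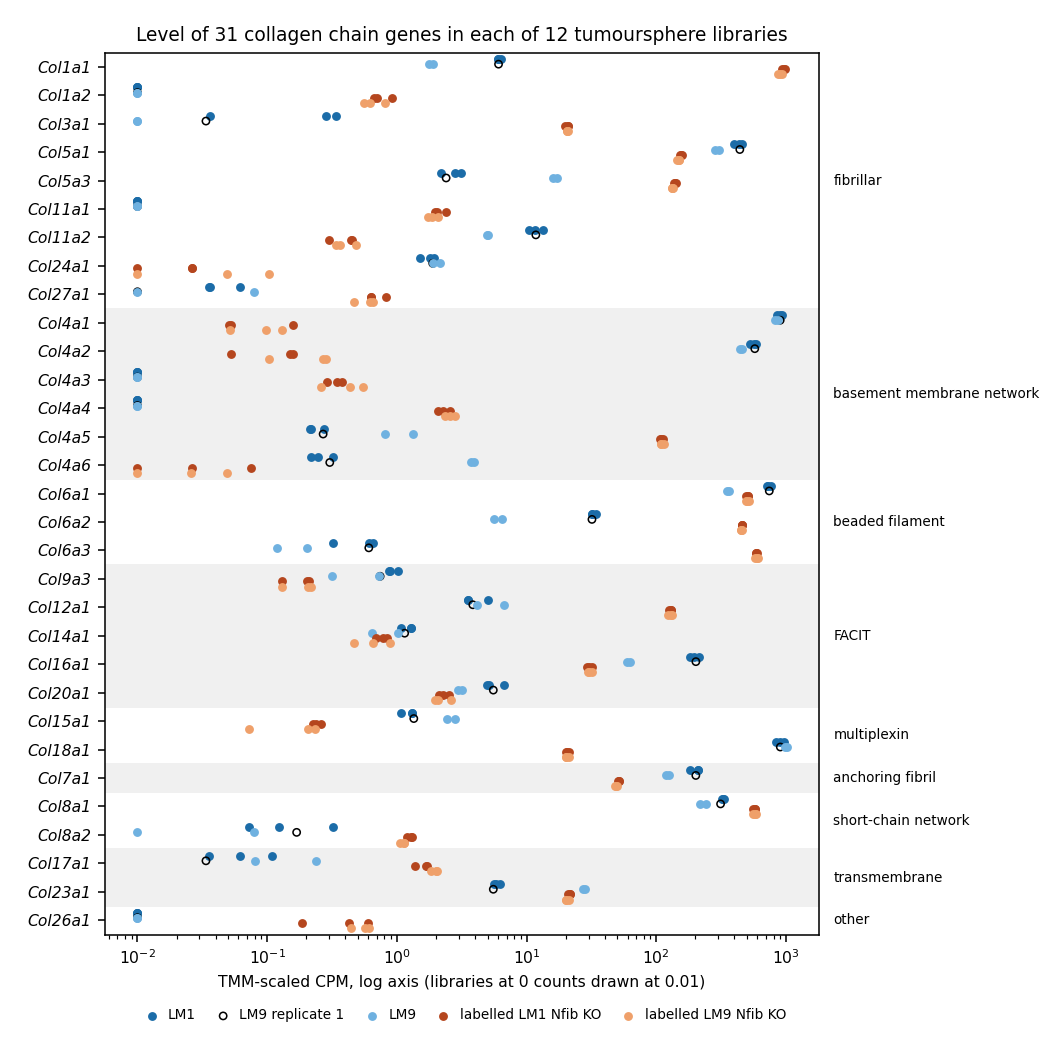
TMM-scaled CPM (log axis, libraries at 0 counts drawn at 0.01) of the 31 collagen chain genes in each of the 12 libraries, grouped by class; the open circle is LM9 replicate 1. Libraries labelled knockout (red and orange) lie apart from the parental libraries (blues) for 28 of the 31 genes, with Col6a1, Col14a1 and Col23a1 as the exceptions.

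Cell type markers moved with these results. All 6 epithelial markers (Epcam, Cdh1, Krt7, Krt8, Krt18 and Krt19) were lower in the knockout-labelled libraries. Their summed level ran from 752 to 803 CPM in LM1, 801 to 1378 CPM in LM9, 2.16 to 2.38 CPM in the LM1KO-labelled libraries and 2.05 to 2.44 CPM in the LM9KO-labelled libraries, so the labelled mammary epithelial origin had little marker signal there. Of 8 fibroblast markers, 6 were in the files, 4 of them higher (Pdgfra, Pdgfrb, Dpt, Lum) and 2 lower (Dcn, Pi16), with sums of 321 to 336 CPM in LM1, 218 to 315 CPM in LM9 and 408 to 427 CPM in the knockout-labelled libraries. Dcn and Lum are also among the fibril regulators below. Of 7 endothelial markers, 4 were in the files and 3 were higher (Cdh5, Kdr, Vwf), with sums of 0.573 to 2.64 CPM in the parental libraries and 369 to 377 CPM in those labelled knockout. Most of the latter sum was Kdr, at 279 to 289 CPM. Pecam1, the other one in the files, did not pass, with 0.169 to 1.33 CPM in the parental and 0.243 to 0.555 CPM in the knockout-labelled libraries.

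Of 7 basal or myoepithelial markers, 3 were in the files, Krt14 and Krt17 higher and Trp63 lower over both lines, with sums of 15.8 to 19.1 CPM in LM1, 0.443 to 17.98 CPM in LM9 and 6.78 to 7.63 CPM in the knockout-labelled libraries. Trp63 was at 17.9 CPM in LM9 replicate 1 but at 0.0403 and 0.276 CPM in replicates 2 and 3, against 0.156 to 0.337 CPM in the LM9KO-labelled libraries, so its log2 fold change in LM9 was -1.49 (SE 1.64, adjusted p = 0.412) with all libraries and 1.01 (SE 0.68, adjusted p = 0.168) without replicate 1. Csf1r was the 1 immune marker in the files out of 6, and it rose from at most 0.0337 CPM to between 11.4 and 13.2 CPM. Matn3 was the 1 cartilage marker out of 6, with at most 0.736 CPM in LM1, 0.202 CPM in LM9 and 0.876 CPM in the knockout-labelled libraries. No marker in the files was at 0 in all parental or in all knockout-labelled libraries. The part of these markers in the collagen results was not tested, and in bulk samples fewer cells of a type cannot be told apart from less RNA per cell.

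Fibrillar chains were higher in 6 of 9 cases and lower in 3 in the knockout-labelled libraries, in each line and over both. Of all genes, 46.3% were higher and 40.5% lower over both lines, shares to be set beside the class counts here and below. The median log2 fold change over both lines was 4.84, or 3.86 with genes at 0 in a group set at their bound, against 0.11 over all genes. Col1a1 (chr11:94936224-94953042, plus strand) encodes the main chain of type I collagen, the chief fibril collagen of skin, bone and tumour stroma. It was at 6.31, 6.04 and 5.96 CPM in LM1, at 6.07, 1.89 and 1.77 CPM in LM9, at 959, 936 and 979 CPM in the LM1KO-labelled libraries and at 868, 895 and 935 CPM in the LM9KO-labelled libraries. All knockout-labelled libraries lay far above the highest parental library, and LM9 replicates 2 and 3 were below the other parental libraries. On the log2 scale the change was 7.29 (SE 0.22) in LM1, 8.31 (SE 0.28) in LM9 and 7.80 (SE 0.18, adjusted p = 3.72e-12) over both lines by limma-voom, and 8.93 (SE 0.18, adjusted p = 2.66e-17) in LM9 without replicate 1.

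Its usual partner Col1a2 (chr6:4504814-4541544, plus strand), the second chain of type I collagen, was barely detected. It had no count in any of the 6 parental libraries, 28, 35 and 25 counts in the LM1KO-labelled libraries and 24, 23 and 31 counts in the LM9KO-labelled libraries, or 0.705, 0.915 and 0.660 CPM and 0.622, 0.560 and 0.806 CPM. Against a floor of 3 counts per library, the level was at least 6.09-fold higher than in LM1 and at least 4.63-fold higher than in LM9. Such floors cover counting error only, since these reads carry no molecular identifiers. Per kilobase of exon, Col1a1 exceeded Col1a2 by 2441 ± 450.3 times in the LM1KO-labelled libraries and by 2622 ± 415 times in the LM9KO-labelled libraries, so the chains of type I collagen did not rise to similar mRNA levels.

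Col3a1 (chr1:45311538-45349706, plus strand), the chain of type III collagen, which shares fibrils with type I, was at 0.284, 0.337 and 0.0361 CPM in LM1, at 0.0337, 0 and 0 CPM in LM9, at 20.8, 19.8 and 20.7 CPM in the LM1KO-labelled libraries and at 20.5, 20.6 and 21.0 CPM in the LM9KO-labelled libraries. Its parental libraries held at most 11 counts each, and those labelled knockout lay close together. In log2 terms it changed by 6.81 (SE 0.44) in LM1, 9.57 (SE 0.56) in LM9 and 8.19 (SE 0.36, adjusted p = 7.34e-10) over both lines, with a fitted 10.03 in LM9 without replicate 1. Against LM9, where the 3 libraries held 1 count in all, in replicate 1, the ratio of pooled counts over pooled scaled library sizes was 1654 (95% exact interval, 297 to 65361). This interval covers counting error only, and without replicate 1 LM9 held no count of Col3a1. Part of its exons overlaps a gene model, Gm47302, on the same strand, and how shared reads were counted was not given.

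The type V chains moved in opposite directions. Type V collagen nucleates type I fibrils. Col5a1 (chr2:27886425-28039514, plus strand), its most common chain, was at 453, 398 and 435 CPM in LM1, at 439.7, 282 and 304 CPM in LM9, at 155, 153 and 158 CPM in the LM1KO-labelled libraries and at 149, 145 and 149 CPM in the LM9KO-labelled libraries. It was lower in all knockout-labelled libraries than in any parental library, with a log2 fold change of -1.46 (SE 0.13) in LM1, -1.19 (SE 0.13) in LM9 and -1.32 (SE 0.09, adjusted p = 6.14e-08) over both lines. Col5a3 (chr9:20770050-20815067, minus strand), its less common chain, was at 3.12, 2.82 and 2.17 CPM in LM1, at 2.39, 16.1 and 17.0 CPM in LM9, at 139, 137 and 141 CPM in the LM1KO-labelled libraries and at 135, 133 and 133 CPM in the LM9KO-labelled libraries. All knockout-labelled libraries were above all parental ones, and the parental lines themselves split, LM9 replicates 2 and 3 lying above LM1 and LM9 replicate 1. The log2 fold change of Col5a3 was 5.69 (SE 0.63) in LM1, 4.0 (SE 0.47) in LM9 and 4.84 (SE 0.39, adjusted p = 2.17e-07) over both lines, and 3.02 (SE 0.06, adjusted p = 2.87e-17) in LM9 without replicate 1. Per kilobase, Col5a1 over Col5a3 went from 130.2 ± 26.7 in LM1 to 0.898 ± 0.00402 in the LM1KO-labelled libraries, and from 147, 14.1 and 14.3 in LM9 replicates 1, 2 and 3 to 0.885 ± 0.0139.

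The type XI chains, known best from cartilage fibrils, moved in opposite directions. Col11a1 (chr3:114030540-114220718, plus strand) had no count in the parental libraries and was at 2.39, 2.04 and 1.95 CPM and 1.87, 2.07 and 1.74 CPM in the LM1KO- and LM9KO-labelled libraries. This was at least 18.03-fold higher than in LM1 and at least 14.4-fold higher than in LM9. Col11a2 (chr17:34039437-34066685, plus strand) was at 11.5, 10.5 and 13.4 CPM in LM1, at 11.8, 4.96 and 5.08 CPM in LM9, at 0.302, 0.444 and 0.449 CPM in the LM1KO-labelled libraries and at 0.363, 0.487 and 0.338 CPM in the LM9KO-labelled libraries. Each library labelled knockout was below each parental one, and the log2 fold change was -4.86 (SE 0.46) in LM1, -4.08 (SE 0.47) in LM9 and -4.47 (SE 0.33, adjusted p = 9.34e-08) over both lines.

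Col24a1 (chr3:145292472-145552011, plus strand), a minor fibrillar chain described in bone, fell from 51, 63 and 42 counts in LM1 and 56, 53 and 48 counts in LM9 to 0, 1 and 1 counts and 4, 2 and 0 counts in the LM1KO- and LM9KO-labelled libraries. In CPM these were 1.81, 1.93 and 1.52 in LM1, 1.89, 2.14 and 1.89 in LM9, 0, 0.0261 and 0.0264 and 0.104, 0.0487 and 0. The ratio of LM1 over the LM1KO-labelled libraries, from pooled counts, was 102 (95% exact interval, 27.8 to 851, for counting error only). The fitted log2 fold change over both lines was -5.74 (SE 0.40, adjusted p = 5.39e-08). Col27a1, its closest relative, moved the other way at low level, from at most 2 counts a library to between 0.467 and 0.819 CPM (log2 fold change over both lines 3.86 (SE 0.35, adjusted p = 5.76e-07)).

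**Figure D3:**
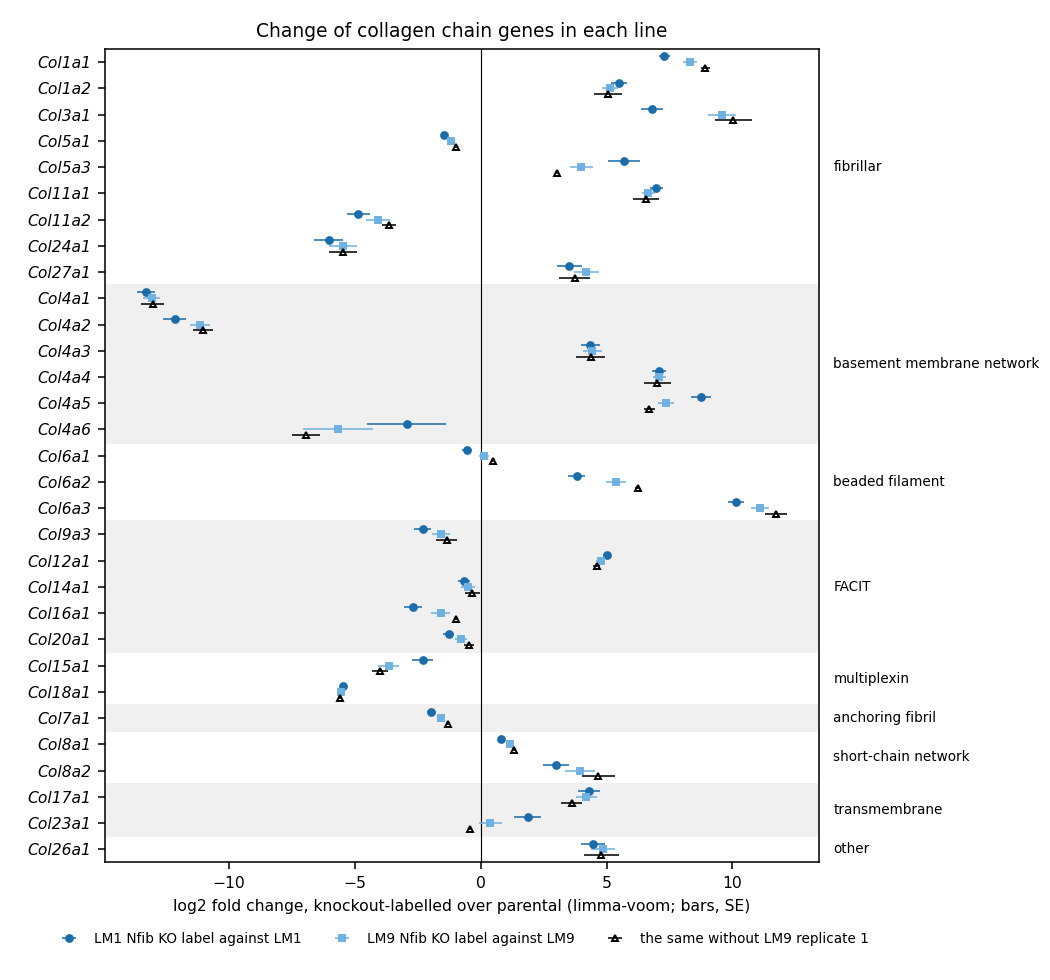
Log2 fold change of each collagen chain gene in the knockout-labelled libraries over the parental libraries (limma-voom; bars, SE), for LM1 (circles), LM9 (squares) and LM9 without replicate 1 (open triangles). Values with all libraries run from -13.29 for Col4a1 to 11.08 for Col6a3, which is at 11.73 in LM9 without replicate 1, and in each class with more than 2 members except the beaded filament some genes lie well to either side of 0.

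The basement membrane chains divided evenly, with 3 of 6 higher and 3 lower over both lines, near the shares of all genes (46.3% and 40.5%). Their median log2 fold change was 0.05, or -1.52 with genes at 0 in a group set at their bound (-0.29 and -1.84 without LM9 replicate 1), and the genes lay far from it on either side. Col4a1 (chr8:11198423-11312826, minus strand) and Col4a2 (chr8:11312805-11449287, plus strand) encode the chains of the common type IV network, present in nearly all basement membranes. Col4a1 was at 922, 846 and 900.2 CPM in LM1 and 900.1, 816 and 871 CPM in LM9. In the LM1KO-labelled libraries it held 2, 2 and 6 counts (0.0503, 0.0523 and 0.159 CPM), and in the LM9KO-labelled libraries 2, 4 and 5 counts (0.0519, 0.0973 and 0.130 CPM). The parental libraries lay close together, LM9 replicate 1 included, and the knockout-labelled libraries were near the floor of 3 counts, which stood between 0.0730 and 0.121 CPM. The log2 fold change was -13.29 (SE 0.34) in LM1, -13.07 (SE 0.33) in LM9 and -13.18 (SE 0.24, adjusted p = 6.93e-13) over both lines.

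Col4a2 was at 588, 524 and 563 CPM in LM1 and 574, 438 and 458 CPM in LM9. It held 6, 2 and 6 counts in the LM1KO-labelled libraries and 4, 11 and 11 counts in the LM9KO-labelled libraries (0.151, 0.0523 and 0.159 CPM, and 0.104, 0.268 and 0.286 CPM). Like its neighbour it fell in every library labelled knockout, with a log2 fold change of -12.15 (SE 0.46) in LM1, -11.15 (SE 0.40) in LM9 and -11.65 (SE 0.30, adjusted p = 1.05e-11) over both lines. Per kilobase, Col4a1 over Col4a2 was 1.41 ± 0.0211 in LM1 and 1.58 ± 0.161 in LM9. The genes lie head to head, with starts 21 bases apart, in the windows printed above, and the first exons overlap on opposite strands by a few bases.

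The remaining type IV chains belong to networks of restricted tissues such as kidney, lung and smooth muscle. Col4a5 (chrX:141475385-141689234, plus strand), which joins Col4a3 and Col4a4 or Col4a6, was at 0.213, 0.276 and 0.217 CPM in LM1, at 0.270, 0.806 and 1.34 CPM in LM9, at 108, 113 and 107 CPM in the LM1KO-labelled libraries and at 114, 109 and 109 CPM in the LM9KO-labelled libraries. It rose in every library labelled knockout, from at most 34 counts to at least 4032, with a log2 fold change of 8.76 (SE 0.40) in LM1, 7.37 (SE 0.33) in LM9 and 8.07 (SE 0.26, adjusted p = 5.5e-11) over both lines. Without LM9 replicate 1 the LM9 value was 6.71 (SE 0.22, adjusted p = 9.08e-15). Col4a6 (chrX:141165403-141474076, minus strand), on the other strand with its start 1309 bases from that of Col4a5, held 9, 8 and 6 counts in LM1, 9, 93 and 100 counts in LM9, 3, 1 and 0 counts in the LM1KO-labelled libraries and 1, 2 and 0 counts in the LM9KO-labelled libraries. In CPM the parental values were 0.319, 0.245 and 0.217 in LM1 and 0.304, 3.75 and 3.94 in LM9, against 0.0755, 0.0261 and 0 and 0.0259, 0.0487 and 0. Only LM9 replicates 2 and 3 had more than 9 counts.

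The fall of Col4a6 passed the threshold in LM9 (-5.66 (SE 1.40, adjusted p = 0.00281); -6.94 (SE 0.55, adjusted p = 2.27e-09) without replicate 1) and over both lines (-4.30 (SE 1.05, adjusted p = 0.00233); -4.93 (SE 0.41, adjusted p = 3.37e-09) without LM9 replicate 1), and was -2.94 (SE 1.57, adjusted p = 0.104) in LM1. The LM1 value did pass without LM9 replicate 1 (-2.92 (SE 0.61, adjusted p = 0.000254)), with DESeq2 (-2.90, adjusted p = 0.0140) and with sample quality weights (-2.59, adjusted p = 0.00122). Col4a4 (chr1:82448423-82586849, minus strand) and Col4a3 (chr1:82586921-82722059, plus strand) start 72 bases apart and had no count in the parental libraries. Col4a4 was at 2.06, 2.27 and 2.56 CPM and 2.83, 2.55 and 2.34 CPM in the LM1KO- and LM9KO-labelled libraries. It was at least 19.0-fold higher than in LM1 and at least 19.3-fold higher than in LM9. Col4a3 reached 0.336 and 0.414 CPM on average, at least 2.65-fold and 2.14-fold higher, and its exons overlap C430014B12Rik on the other strand, whose reads cannot be told apart if the counting ignored strand. Thus 2 head-to-head pairs moved together (Col4a1 with Col4a2 and Col4a3 with Col4a4), and the pair Col4a5 and Col4a6 moved apart.

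The type VI chains, which assemble with their partners into beaded filaments around cells, went from very unequal to similar mRNA levels. Col6a1 (chr10:76708792-76726168, minus strand) was at 759, 717 and 723 CPM in LM1, at 742, 352 and 364 CPM in LM9, at 508, 494 and 509 CPM in the LM1KO-labelled libraries and at 513, 487 and 501 CPM in the LM9KO-labelled libraries. The knockout-labelled libraries lay between LM1 and LM9 replicate 1 on the upper side and LM9 replicates 2 and 3 on the lower, so the groups overlap. Col6a1 was lower than in LM1 (-0.54 (SE 0.22, adjusted p = 0.0367)), did not pass the threshold in LM9 (0.13 (SE 0.22, adjusted p = 0.583)) or over both lines (-0.21 (SE 0.15, adjusted p = 0.224)), and was higher in LM9 without replicate 1 (0.48 (SE 0.03, adjusted p = 6.08e-10)). Its LM1 call was lost with total counts and when any library labelled LM1, LM1KO or LM9KO was left out, and its value over both lines ran from -0.30 to 0.08 over the alternatives.

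Col6a2 (chr10:76595762-76623630, minus strand), which lies on the same strand with its start 102538 bases from that of Col6a1, was at 34.2, 32.2 and 31.7 CPM in LM1, at 31.9, 5.56 and 6.45 CPM in LM9, at 461, 455 and 459 CPM in the LM1KO-labelled libraries and at 458, 445 and 451 CPM in the LM9KO-labelled libraries. The knockout-labelled libraries stood well above all parental ones, and LM9 replicates 2 and 3 below the rest. On the log2 scale the change was 3.81 (SE 0.33) in LM1, 5.37 (SE 0.41) in LM9 and 4.59 (SE 0.26, adjusted p = 9.48e-09) over both lines, and 6.23 (SE 0.09, adjusted p = 3.39e-19) in LM9 without replicate 1. Col6a3 (chr1:90765923-90843971, minus strand), the largest chain, was at 0.319, 0.613 and 0.651 CPM in LM1, at 0.607, 0.201 and 0.118 CPM in LM9, at 588, 586 and 598 CPM in the LM1KO-labelled libraries and at 603, 580.0 and 591 CPM in the LM9KO-labelled libraries. Its parental libraries held between 3 and 20 counts, at or above the floor of 3, while those labelled knockout held at least 22435. In log2 terms it changed by 10.14 (SE 0.30) in LM1, 11.08 (SE 0.36) in LM9 and 10.61 (SE 0.24, adjusted p = 2.93e-12) over both lines, with 11.73 (SE 0.42, adjusted p = 3.44e-14) in LM9 without replicate 1.

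Per kilobase of exon, Col6a1 was at 167 ± 5.14, Col6a2 at 3.92 ± 0.158 and Col6a3 at 0.0441 ± 0.0152 CPM per kb in LM1. In the LM1KO-labelled libraries they were at 115 ± 1.88, 55.0 ± 0.327 and 49.4 ± 0.555 CPM per kb, and those for LM9KO were 114 ± 2.95, 54.2 ± 0.7500 and 49.4 ± 0.953 CPM per kb. The ratio of Col6a1 to Col6a2 was 42.7 ± 0.623 in LM1, and 44.2, 120.4 and 107 in LM9 replicates 1, 2 and 3. It was 2.09 ± 0.0236 and 2.11 ± 0.0257 in the LM1KO- and LM9KO-labelled libraries. Col6a3 over Col6a2 went from 0.0114 ± 0.00423 in LM1 to 0.897 ± 0.00996, and from 0.0171 ± 0.00706 in LM9 to 0.912 ± 0.00504. These lengths are unions of all annotated exons, so a ratio between genes depends on which transcripts are made.

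**Figure D4:**
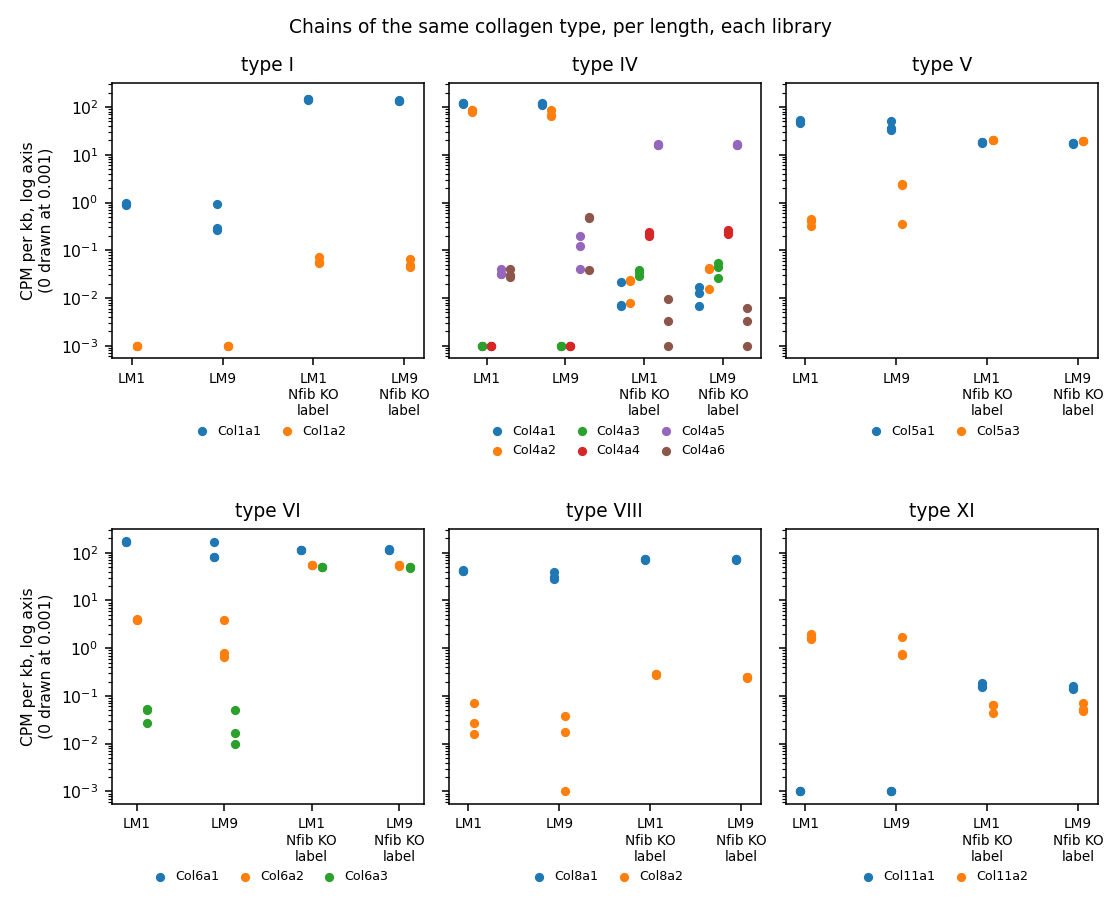
CPM per kilobase of exon (log axis, 0 drawn at 0.001) of the chains of 6 collagen types in each library, by group; each point is 1 library. The 3 type VI chains lie between 49.4 and 115 CPM per kb on average in the knockout-labelled libraries, and type I is the opposite case, with Col1a1 at 146 and Col1a2 at 0.0612 CPM per kb in the LM1KO-labelled libraries.

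Of the 5 FACIT genes, 4 were lower and 1 was higher over both lines (40.5% and 46.3% of all genes), with a median log2 fold change of -1.02. Col12a1 (chr9:79598991-79718831, minus strand), which encodes a fibril-bound collagen of tendon and of tissues under tension, was the gene that rose. It was at 3.51, 3.52 and 5.02 CPM in LM1, at 3.85, 4.11 and 6.69 CPM in LM9, at 129, 125 and 131 CPM in the LM1KO-labelled libraries and at 132, 129.7 and 123 CPM in the LM9KO-labelled libraries. The parental libraries did not exceed 6.69 CPM and those labelled knockout did not fall below 123 CPM. The log2 fold change was 5.02 (SE 0.17) in LM1, 4.76 (SE 0.16) in LM9 and 4.89 (SE 0.12, adjusted p = 4.69e-12) over both lines.

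Col16a1 (chr4:130047840-130099283, plus strand), a FACIT of skin fibrils and of cell contacts, was at 212, 183 and 197 CPM in LM1, at 202, 59.8 and 62.3 CPM in LM9, at 30.4, 29.03 and 31.9 CPM in the LM1KO-labelled libraries and at 31.7, 30.3 and 29.7 CPM in the LM9KO-labelled libraries. LM1 and LM9 replicate 1 were highest, LM9 replicates 2 and 3 intermediate and all knockout-labelled libraries lowest. On the log2 scale the change was -2.69 (SE 0.36) in LM1, -1.59 (SE 0.37) in LM9 and -2.14 (SE 0.26, adjusted p = 9.01e-06) over both lines, and -0.99 (SE 0.07, adjusted p = 2.34e-10) in LM9 without replicate 1. The other FACIT genes were at low level. Col9a3, a cartilage chain, had 0.315 to 1.011 CPM in the parental libraries and 0.130 to 0.219 CPM in those labelled knockout (log2 fold change over both lines -1.94 (SE 0.25, adjusted p = 1.59e-05)). Col20a1 had 2.95 to 6.72 against 1.98 to 2.63 CPM (-1.02 (SE 0.17, adjusted p = 0.000111)), and its start lies 388745 bases from that of Col9a3 on the same strand. For Col14a1, which coats fibrils of soft tissue, the groups overlapped (0.645 to 1.29 against 0.468 to 0.882 CPM). Its fall over both lines (-0.58 (SE 0.19, adjusted p = 0.0113)) did not pass with total counts, and in LM9 it was -0.51 (SE 0.27, adjusted p = 0.105), passing only without LM9 replicate 2 (-0.74, adjusted p = 0.0217) or without LM9KO replicate 1 (-0.72, adjusted p = 0.0399) among the alternatives tried. In LM1 it passed (-0.66 (SE 0.25, adjusted p = 0.0298)), but not with total counts (-0.44, adjusted p = 0.150), without LM1 replicate 1 or 2 or without LM1KO replicate 1 or 3. With total counts the fall of Col20a1 in LM9 did not pass either, and without LM9 replicate 1 it was -0.46 (SE 0.19, adjusted p = 0.0304).

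Both multiplexin genes were lower, with a median log2 fold change of -4.24 over both lines. Col18a1 (chr10:77052178-77166548, minus strand) encodes a basement membrane proteoglycan whose end fragment is endostatin. It was at 963, 831 and 901 CPM in LM1, at 902, 977 and 1008 CPM in LM9, at 20.1, 20.4 and 21.1 CPM in the LM1KO-labelled libraries and at 21.1, 20.0 and 20.1 CPM in the LM9KO-labelled libraries. The parental libraries lay within 831 to 1008 CPM in both lines and the knockout-labelled libraries within 20.0 to 21.1 CPM. In log2 terms it changed by -5.45 (SE 0.07) in LM1, -5.56 (SE 0.07) in LM9 and -5.50 (SE 0.05, adjusted p = 2.6e-14) over both lines. Its start lies 440380 bases from that of Col6a1 on the same strand.

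Col15a1 (chr4:47208161-47313167, plus strand), the other multiplexin, was at 1.31, 1.32 and 1.08 CPM in LM1, at 1.35, 2.82 and 2.44 CPM in LM9, at 0.227, 0.261 and 0.238 CPM in the LM1KO-labelled libraries and at 0.233, 0.0730 and 0.208 CPM in the LM9KO-labelled libraries. It was lower in every library labelled knockout, and LM9 replicates 2 and 3 were the highest of the parental libraries. The log2 fold change was -2.30 (SE 0.41) in LM1, -3.66 (SE 0.42) in LM9 and -2.98 (SE 0.29, adjusted p = 1.31e-06) over both lines. Col7a1 (chr9:108953586-108984875, plus strand), which forms the anchoring fibrils that tie the epithelial basement membrane to the matrix beneath, was at 208, 181 and 211 CPM in LM1, at 201, 118 and 126 CPM in LM9, at 50.9, 51.6 and 51.7 CPM in the LM1KO-labelled libraries and at 49.8, 48.1 and 48.6 CPM in the LM9KO-labelled libraries. The order was the same as for Col16a1, with LM1 and LM9 replicate 1 above LM9 replicates 2 and 3 and these above the knockout-labelled libraries. The log2 fold change of Col7a1 was -1.96 (SE 0.16) in LM1, -1.56 (SE 0.17) in LM9 and -1.76 (SE 0.12, adjusted p = 3.39e-08) over both lines.

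Both short-chain network genes were higher. Col8a1 (chr16:57624258-57754737, minus strand) encodes a chain of type VIII collagen, known from vessel walls and the cornea. It was at 321, 333 and 325 CPM in LM1, at 312, 216 and 240.2 CPM in LM9, at 573, 576 and 551 CPM in the LM1KO-labelled libraries and at 559.9, 583 and 579 CPM in the LM9KO-labelled libraries. It rose in all knockout-labelled libraries by a modest factor next to the other members, with a log2 fold change of 0.79 (SE 0.11) in LM1, 1.18 (SE 0.11) in LM9 and 0.99 (SE 0.07, adjusted p = 1.14e-07) over both lines. Its partner Col8a2 rose from at most 0.319 CPM to between 1.07 and 1.31 CPM (3.47 (SE 0.39, adjusted p = 4.18e-06) over both lines). Per kilobase, Col8a1 exceeded Col8a2 by 256 ± 15.99 times in the LM1KO-labelled libraries and by 295 ± 15.2 times in the LM9KO-labelled libraries.

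Of the transmembrane collagens, Col23a1 (chr11:51289920-51583918, plus strand), a membrane collagen that can be shed from the cell surface, was at 5.60, 5.76 and 6.18 CPM in LM1, at 5.53, 27.1 and 27.9 CPM in LM9, at 21.6, 20.7 and 21.7 CPM in the LM1KO-labelled libraries and at 20.2, 20.0 and 21.1 CPM in the LM9KO-labelled libraries. LM9 replicates 2 and 3 stood above every other library, and the LM1 libraries with LM9 replicate 1 below every other. Col23a1 rose against LM1 (1.86 (SE 0.53, adjusted p = 0.00668)), was 0.39 (SE 0.44, adjusted p = 0.429) against LM9 with all libraries, and was lower than LM9 without replicate 1 (-0.42 (SE 0.05, adjusted p = 1.1e-06)). Its call over both lines (1.13 (SE 0.35, adjusted p = 0.00935)) therefore joins lines whose direction depends on this library, and was 0.72 (SE 0.04, adjusted p = 5.34e-11) without it. Col17a1, a hemidesmosome component of basal epithelium, rose from at most 6 counts a library to between 1.38 and 2.03 CPM (4.25 (SE 0.30, adjusted p = 6.59e-08) over both lines). Col26a1 had no count in the parental libraries and 0.185 to 0.608 CPM in those labelled knockout, at least 1.71-fold and 3.65-fold higher for LM1 and LM9.

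The share of all counts held by the collagen genes together differed less than the single genes did. It was 0.408 ± 0.0185% in LM1 and 0.417 ± 0.00352% in the LM1KO-labelled libraries (SD, n = 3). For LM9 the shares were 0.412%, 0.276% and 0.289% in replicates 1, 2 and 3, against 0.407 ± 0.00244% in the LM9KO-labelled libraries, which lay above replicates 2 and 3 and just below replicate 1. Summed per kilobase of exon, the level was 650.0 ± 30.3 CPM per kb in LM1, 656, 488 and 512 in LM9 replicates 1, 2 and 3, 521 ± 5.08 in the LM1KO-labelled libraries and 509.7 ± 5.19 in the LM9KO-labelled libraries, so its direction against LM9 depended on replicate 1.

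The makeup by class changed. The basement membrane chains made up 31.3 ± 0.217% of the summed level per kilobase in LM1 and 34.7 ± 2.71% in LM9, and 3.17 ± 0.120% and 3.29 ± 0.0897% in the LM1KO- and LM9KO-labelled libraries. The multiplexins went from 19.7 ± 0.534% and 25.4 ± 5.06% to 0.568 ± 0.0127% and 0.576 ± 0.0192%. The fibrillar chains went from 8.27 ± 0.167% and 7.89 ± 0.436% to 35.9 ± 0.416% and 34.6 ± 0.772%. This fibrillar sum was mostly Col5a1 in the parental lines, at 50.5 ± 3.34 CPM per kb in LM1, and mostly Col1a1 in the knockout-labelled libraries, at 146 ± 3.29 CPM per kb for LM1. The beaded filament chains went from 26.4 ± 0.635% to 42.1 ± 0.0831% for LM1, and the short-chain chains from 6.43 ± 0.426% to 13.9 ± 0.439%. FACIT chains made up 4.76 ± 0.108% in LM1 and 2.59 ± 0.0592% in the LM1KO-labelled libraries. For LM9 the direction depended on replicate 1, with 4.81%, 2.06% and 2.04% in replicates 1, 2 and 3 against 2.65 ± 0.119% in the LM9KO-labelled libraries. Shares of a sum move together, so a lower share of a class need not mean a lower level.

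**Figure D5:**
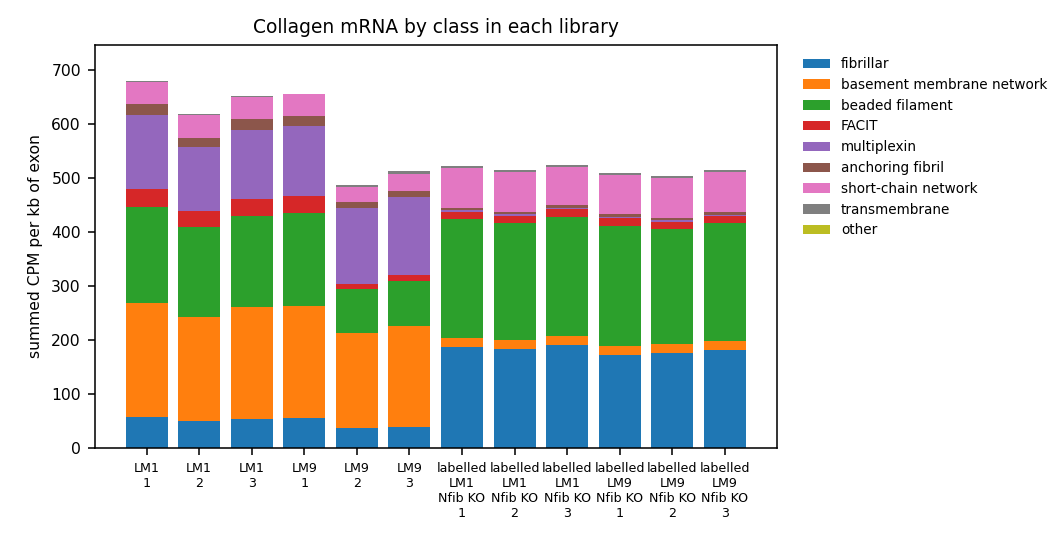
Summed CPM per kilobase of exon of the collagen classes in each library, stacked, with the y axis from 0. The basement membrane (orange) and multiplexin (purple) blocks of the 6 parental libraries shrink to thin bands in the 6 knockout-labelled libraries, where the fibrillar block (blue) is larger; LM9 replicate 1 has the profile of LM1, with a sum of 656 CPM per kb against 488 and 512 in LM9 replicates 2 and 3.

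Whether the change differed between the lines depended on LM9 replicate 1. With all 12 libraries, limma-voom called the difference of the LM1 and LM9 changes for 0 of 31 members and 0% of all genes, with 6 members (and 24.7% of all genes) at an unadjusted p under 0.05. The edgeR quasi-likelihood test called 0 members and 1 gene in all, and DESeq2 called 1 member, Col4a5, and 0.385% of all genes. Without LM9 replicate 1, 16 of 31 were called, against 57.2% of all genes, 5 with the more positive change in LM1 (27.6% of all genes) and 11 in LM9 (29.6%). Col5a3 rose more in LM1 (difference 2.67 (SE 0.12, adjusted p = 2.88e-11)), as did Col4a5 (2.06 (SE 0.36, adjusted p = 0.000107)). Col6a2 (-2.42 (SE 0.10, adjusted p = 6.42e-12)), Col1a1 (-1.63 (SE 0.20, adjusted p = 2.69e-06)) and Col3a1 (-3.23 (SE 0.84, adjusted p = 0.00332)) rose more in LM9.

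The parental lines were compared in the same way. Between LM1 and LM9, 0 of 31 members were called with all libraries, against 0.0055% of all genes, with 16 members (and 47.7% of all genes) at an unadjusted p under 0.05. By edgeR 0 members were called, and by DESeq2 9 members and 31.8% of all genes. These shares of the members were near those of all genes. Without LM9 replicate 1, 20 of 31 were called, 14 higher and 6 lower in LM1, against 65.7% of all genes (33.4% higher, 32.4% lower). All 3 type VI chains were then higher in LM1, Col6a2 by the most (2.44 (SE 0.09, adjusted p = 1.18e-12)), while Col4a6 (-3.82 (SE 0.34, adjusted p = 2.89e-08)), Col5a3 (-2.62 (SE 0.12, adjusted p = 7.58e-12)) and Col23a1 (-2.23 (SE 0.08, adjusted p = 2.79e-13)) were higher in LM9. These comparisons share their parental libraries with those above. Between the LM1KO- and LM9KO-labelled libraries, 0 of 31 members and 0% of all genes were called, with 0 members at an unadjusted p under 0.05 by limma-voom, edgeR or DESeq2. The log2 differences of the members ran from -0.81 for Col4a2 to 0.62 for Col15a1, both genes with at most 11 counts a library there.

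Genes that modify, carry, process and bind collagen were listed by role. Of 62 listed genes, 51 were in the files and tested, and over both lines 18 were higher and 29 lower in the knockout-labelled libraries, against 46.3% and 40.5% of all genes. By line, 19 were higher and 29 lower in LM1 (43.1% and 38.1% of all genes), and 18 higher and 27 lower in LM9 (44.3% and 38%). Counts by role below are over both lines, to be set beside the same 46.3% higher and 40.5% lower of all genes. Among the 14 genes of prolyl and lysyl hydroxylation, the enzymes that stabilise the helix, 2 were higher and 9 lower. P4ha1, the main catalytic subunit of prolyl hydroxylase, went from 883 ± 26.2 CPM (LM1) and 1090.0 ± 187 CPM (LM9) to 136 ± 0.895 and 136 ± 3.35 CPM (log2 fold change -2.84 (SE 0.07, adjusted p = 8.78e-12)). P4ha2 (-1.54 (SE 0.04, adjusted p = 1.26e-11)) and Plod2, a lysyl hydroxylase (-1.57 (SE 0.07, adjusted p = 9.57e-10)), were also lower, as was Ppib, a prolyl isomerase of the endoplasmic reticulum (-1.13 (SE 0.11, adjusted p = 9.02e-07)). Both of the higher genes were at low level, P4ha3 at 8.69 and P3h4 at 9.96 CPM in the LM1KO-labelled libraries. P4hb, the other subunit of prolyl hydroxylase, was higher against LM1 (0.45 (SE 0.18, adjusted p = 0.0348)), was at -0.11 (SE 0.18, adjusted p = 0.568) against LM9, and was lower there without replicate 1 (-0.39 (SE 0.02, adjusted p = 2.25e-11)). It was at 1422 ± 18.2 CPM in LM1, at 1419.9, 2563 and 2558 CPM in LM9 replicates 1, 2 and 3, and at 1939.5 ± 8.18 and 1949 ± 41.5 CPM in the LM1KO- and LM9KO-labelled libraries. Plod3, a lysyl hydroxylase, split in the same way, with 0.23 (SE 0.09, adjusted p = 0.0281) against LM1, -0.04 (SE 0.09, adjusted p = 0.678) against LM9 and -0.16 (SE 0.03, adjusted p = 0.000239) there without replicate 1.

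Of 8 chaperones and secretion factors, 2 were higher and 5 lower. Serpinh1, the collagen chaperone HSP47, went from 852 ± 58.9 CPM (LM1) and 871 ± 14.2 CPM (LM9) to 611 ± 7.25 and 599.8 ± 7.87 CPM (-0.51 (SE 0.04, adjusted p = 1.47e-07)). Fkbp10, a chaperone of type I procollagen, went from 0.244 ± 0.0827 CPM (LM1) and 0.105 ± 0.120 CPM (LM9) to 56.7 ± 1.40 and 55.6 ± 1.39 CPM (8.60 (SE 0.33, adjusted p = 2.57e-10)), and Mia2 was also higher (1.40 (SE 0.06, adjusted p = 6.53e-10)). Tmem38b (-2.94 (SE 0.14, adjusted p = 1.48e-09)), Sec23a (-0.89 (SE 0.12, adjusted p = 1.98e-05)) and Fkbp14 (-0.84 (SE 0.08, adjusted p = 1.4e-06)) were lower, with Sec23a at -0.61 (SE 0.17, adjusted p = 0.00604) in LM9 and -0.34 (SE 0.05, adjusted p = 1.81e-05) there without replicate 1. Sec24d, a coat protein of secretory vesicles, did not pass over both lines (0.08 (SE 0.20, adjusted p = 0.718)) or in either line, and was 1.04 (SE 0.04, adjusted p = 1.15e-13) in LM9 without replicate 1. Mia3 passed over both lines (-0.14 (SE 0.05, adjusted p = 0.0149)) and in LM1 but not in LM9 (-0.04 (SE 0.07, adjusted p = 0.545)). Of 5 propeptide processing genes, 3 were higher and 2 lower. The protease Bmp1 was lower (-1.81 (SE 0.07, adjusted p = 3.45e-10)) and so was Adamts14 (-0.58 (SE 0.05, adjusted p = 2.64e-07)), while the Bmp1 enhancers Pcolce (1.63 (SE 0.04, adjusted p = 8.71e-12)) and Pcolce2 (1.28 (SE 0.12, adjusted p = 9.43e-07)) were higher.

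Of 3 cross-linking enzymes in the files, Loxl3 was lower (-6.17 (SE 0.16, adjusted p = 1.08e-11)), and Loxl4 (2.02 (SE 0.06, adjusted p = 1.46e-11)) and Loxl1 were higher. Lox and Loxl2 were not analysed here. Of 7 collagen receptors and uptake genes, 3 were higher and 4 lower. The integrin subunits Itga1, which binds type IV collagen, and Itga2 were lower (-5.09 (SE 0.25, adjusted p = 1.86e-09) and -3.81 (SE 0.31, adjusted p = 2.37e-07)), as was the epithelial receptor Ddr1 (-1.17 (SE 0.05, adjusted p = 5.03e-10)). The receptor Ddr2, which binds fibrillar collagen, was higher (1.40 (SE 0.04, adjusted p = 1.68e-11)), and Mrc2, an uptake receptor for collagen fragments, went from 0.866 ± 0.229 CPM (LM1) and 0.761 ± 0.244 CPM (LM9) to 154 ± 2.46 and 150.5 ± 0.798 CPM (7.55 (SE 0.14, adjusted p = 7.3e-13)).

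Of 5 fibril regulators, small proteoglycans that coat fibrils, 3 were higher and 2 lower. Dcn (-2.08 (SE 0.36, adjusted p = 0.000193)) and Prelp (-3.14 (SE 0.40, adjusted p = 1.31e-05)) were the lower ones over both lines. Their log2 differences in LM9 were smaller without replicate 1. Dcn was at 84.4, 15.7 and 15.1 CPM in LM9 replicates 1, 2 and 3 against 12.3 ± 0.131 CPM in the LM9KO-labelled libraries, with a log2 fold change of -1.18 (SE 0.53, adjusted p = 0.0576) in LM9 and -0.32 (SE 0.08, adjusted p = 0.00114) without replicate 1. For Prelp the LM9 values were -2.21 (SE 0.57, adjusted p = 0.00372) and -1.42 (SE 0.14, adjusted p = 4.38e-08). Of 9 transcription factors, 3 were higher and 6 lower over both lines. Creb3l1, a factor of the endoplasmic reticulum that acts on type I collagen genes, went from 0.0241 ± 0.0417 CPM (LM1) and 0.0134 ± 0.0233 CPM (LM9) to 12.6 ± 0.288 and 12.7 ± 0.816 CPM (8.82 (SE 0.35, adjusted p = 3.55e-10)). Nfic (0.41 (SE 0.05, adjusted p = 4.83e-06)) and Nfib itself, which passed in LM9 but not in LM1, were the others that were higher over both lines, and Cebpb (-3.24 (SE 0.17, adjusted p = 4.17e-09)), Sox9 (-2.22 (SE 0.13, adjusted p = 1.15e-08)) and Nfix (-1.97 (SE 0.10, adjusted p = 2.01e-09)) had the largest falls among those with a group mean of at least 10 CPM.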

How the data were processed

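Stranded poly-A RNA-seq was made from 12 tumoursphere libraries in 4 groups of 3, grouped by the sample titles. The authors aligned single-end reads with STAR to mm10, counted those whose 5′ ends fell in the union of a gene's exons with qCount of QuasR, and deposited raw counts, whole numbers per gene, in a file for each library. Tool versions, the annotation release, the strand setting and the treatment of reads with several alignments were not given in the sources used here. Each file listed the same 18278 genes, and every gene held at least 8 counts in its third-highest library. Whether the authors had filtered the genes was not given in the sources used here.

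From the counts, genes were filtered with filterByExpr (count minimum 10, total minimum 15), which kept 18176, and scaled by TMM. limma-voom was fitted with 1 mean per group over all 12 libraries, and two-sided p-values were adjusted by Benjamini-Hochberg over all genes in each of 6 contrasts (threshold 0.05). R 4.3.3 was used with limma 3.58.1, with edgeR 4.0.16 and with DESeq2 1.42.0. Levels between genes were divided by the exon union of GENCODE M21. Totals of 29249075 to 37162594 counts put a floor of 3 counts at 0.0730 to 0.121 CPM. Promoter windows were those of RefSeq on GRCm38.p6, the assembly of mm10.

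All members are accounted for. Values per library are given for members with a group mean of at least 10 CPM and for the 3 largest rises and falls among the rest. From each pathway list up to 3 rises and 3 falls with a group mean of at least 10 CPM are named, with P4ha1, P4ha2, Plod2, Serpinh1, Ppib and Bmp1. Other names were chosen after their values were seen. The members and lists were chosen with earlier results of these data known. As alternatives, the tests were DESeq2 and edgeR's quasi-likelihood test, the scaling was by total counts or median-ratio factors, and the filter was absent or a mean of 5 CPM or more. Further fits used sample quality weights, the replicate number as a block, only the groups compared, a required log2 fold change beyond 1 in size, or 1 library fewer. The code was tested on simulated counts with 200 genes changed by 1 on the log2 scale at a dispersion of 0.01. limma-voom recovered 200 of them for the contrast over both lines with 16 false calls among 17592 genes, and, for the difference between lines, 188 with 12 false calls in 17575 tested. In these counts most genes were unchanged and no library lay with another group. The simulation thus checks the code and not the tests under the conditions of these data.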

Additional observations from a re-analysis of the deposited data

How the results depend on the processing

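The directions of the collagen results over both lines held under the alternatives for all members but Col6a1, whose value ran from -0.30 to 0.08. Of 31 members, 30 were called over both lines with every library left out in turn, 28 to 31 in LM1 and 28 to 30 in LM9. With a mean of at least 5 CPM, 16 members were tested, and 16 were called in LM1, 14 in LM9 and 15 over both lines, against 84.3%, 84.7% and 88.8% of all genes tested. The line comparisons rested on LM9 replicate 1. The difference between lines was called for 0 members with all libraries, 1 with DESeq2 (0.385% of all genes), 17 with sample quality weights (58.1%) and 16 without that replicate (57.2%; 0 to 16 members over the libraries left out in turn). Between LM1 and LM9, 0 were called with all libraries, 9 with DESeq2 (31.8% of all genes), 9 with total counts (28.8%), 7 of 16 with a mean of at least 5 CPM (39.4%), 19 with quality weights (63.8%) and 20 without that replicate (65.7%; 0 to 20 over the libraries left out in turn). Between LM1KO and LM9KO the count was 0 whichever library was left out. Against LM9, Col23a1 turned from 0.39 to -0.40 with quality weights and to -0.42 without LM9 replicate 1 (-0.42 to 0.80 over the libraries left out in turn). The cause was not tested. A fit of only the groups compared is the same fit for the contrast over both lines and for the difference between lines. Genes at a few counts, among them Col4a1 and Col4a2 in the knockout-labelled libraries, have fold changes limited by depth.

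The replicate number was tried as a block. With the replicate block 30 members were called in LM1, 28 in LM9, 30 over both lines and 0 in the other 3 comparisons, the same counts as without it. The labels do not say that equal numbers were handled together, and same-numbered libraries did not deviate together, with a mean correlation of -0.00035 between LM1 and LM1KO and of -0.034 between LM9 and LM9KO. Of 6 libraries, 2 correlated best with their own number in the first pair of groups and 0 in the second.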
